A study of Mus musculus with 13 samples.

Results

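General capillary endothelial cells line most of the length of the lung's capillaries. They were chosen by measured values, as the barcodes of a single-cell RNA count table of mouse lung with 2 or more transcripts of Cdh5 (VE-cadherin, the adhesion protein of endothelial junctions) and 2 or more of Gpihbp1 (the capillary anchor of lipoprotein lipase). Such a cell also had at most 10% of its transcripts from mitochondrial genes and none of Ednrb, Car4, Vwf, Prox1, Col1a1 or Ptprc, which mark aerocytes, large vessels, lymphatics, fibroblasts and leukocytes. The rule left 437 cells of the 24344 barcodes in the 4 libraries of dissociated lung, or of 37344 barcodes in the whole matrix. Cdh5, Gpihbp1 and the 6 excluded genes therefore describe the choice and are not findings.

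The study set lungs of C57BL/6 mice with a Control label beside an Asthma model, in which mice were sensitized and challenged with ovalbumin, a PPE-emphysema model of repeated porcine pancreatic elastase instilled into the airway, and a PPE-recovery model. Each of these 4 groups was 1 mouse, and the other 9 samples (Acute injury, Con and emphysema, 3 each) had no separate file analysed here. The deposited matrix numbers its libraries from 1 to 7 and ties no number to a group. It was therefore read as 1 sample, values are given by library number, and no library is called diseased or healthy.

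The lung capillary bed holds 2 kinds of endothelial cell. Aerocytes are large, thin cells given over to gas exchange, and general capillary cells are known to steer vessel tone, receive apelin and Kit ligand signals and act as the stem-like cells of the bed. General capillary cells also carry MHC class II, the surface molecules that show peptides to CD4 T cells.

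Library 1 held 53 of the cells, library 2 held 242, library 3 held 114 and library 7 held 28. Libraries 4, 5 and 6 held 0, with 8, 12 and 9 transcripts of Cdh5 in all and none of Gpihbp1. Most of the cells thus came from library 2, and values pooled over libraries lean on it. The median cell had 4030 transcripts, counted as unique molecular identifiers (UMIs), from 2018 genes, and the range over cells was 627 to 80695 UMIs. Medians by library were 4648, 4077, 3441 and 5693.5 UMIs in libraries 1, 2, 3 and 7. The cells held 2024524 UMIs together, from 270989 in library 1, 1163337 in library 2, 417797 in library 3 and 172401 in library 7.

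A few barcodes stood apart. One in library 2 had 80695 UMIs, and it held 42792 of the 44823 transcripts of Scgb1a1, the secretory protein of airway club cells, found in all 437 cells. A second in library 2 held 1696 of the 1951 transcripts of Sftpc, the surfactant protein of alveolar type 2 cells, and 662 of 1177 of Lyz2. One in library 7 held 27 of 28 transcripts of Mmrn1 and 72 of 85 of Ccl21a, both lymphatic markers, and none of Sema3c. In library 1, 3 barcodes held 86 of 93 transcripts of Top2a and 56 of 62 of Mki67, genes of dividing cells, beside 34 of Sema3c. The main results that rest on these cells are also given without them. Among the 437 cells, 4 had a barcode sequence that also occurs in another of the 7 libraries, and no 2 of them shared one. Scrublet, a caller of doublets, marked 1 of the 437.

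The share of these cells among all barcodes within the mitochondrial limit differed between libraries. It was 1.104% in library 1 (95% exact binomial interval 0.828 to 1.44), 3.17% in library 2 (2.79 to 3.59), 2.22% in library 3 (1.84 to 2.66) and 0.848% in library 7 (0.564 to 1.22). Libraries 2 and 3 lay above libraries 1 and 7 with no overlap of their intervals. Among cells with 2 or more Cdh5 UMIs the shares lay close together. They were 9.22% (6.98 to 11.9), 11.9% (10.48 to 13.3), 12.9% (10.8 to 15.3) and 11.4% (7.70 to 16.0) in the same order, and every pair of intervals overlapped. The number of Cdh5 cells itself was 575 of 4800, 2043 of 7626, 881 of 5129 and 246 of 3301 barcodes within the limit. Intervals here and below cover counting error only.

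**Figure D1:**
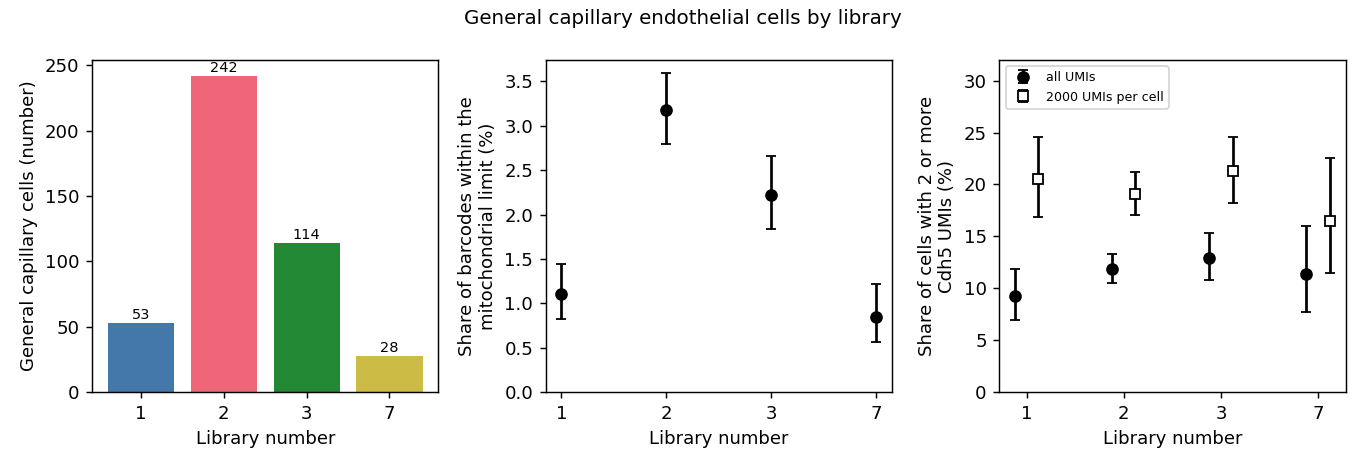
Number of general capillary cells in each lung library (left), their percentage of barcodes within the mitochondrial limit (middle) and their percentage of cells with 2 or more Cdh5 UMIs (right), with exact 95% binomial intervals; open squares show the last share with every cell thinned to 2000 UMIs. Libraries 2 and 3 are high in the middle panel, and the 4 intervals overlap in the right one.

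A rule that asks for 0 UMIs of 6 genes keeps shallow cells more readily. The median depth of all 3745 cells with 2 or more Cdh5 UMIs was 6139 UMIs, against 4030 in the general capillary cells. With every cell thinned to 2000 UMIs the rule took 548 cells, or 19.7% of the Cdh5 cells, and the libraries gave 20.5%, 19.1%, 21.3% and 16.5%. Of 2764 barcodes that met the Cdh5 and Gpihbp1 limits, 371 were left out for a single UMI of an excluded gene, 159 of them for Car4 and 156 for Vwf. Those just outside cells had 1924 UMIs of Sema3c per 1000000 UMIs (CPM, the scale of all levels below), against 1841 in the members. The 75 members with exactly 2 Gpihbp1 UMIs had 2038 CPM and the 69 barcodes with 1 had 1932 CPM.

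The label was set against markers that the rule had not used. Of 22 pan-endothelial genes all had transcripts and 21 reached 50 CPM. Pecam1 (an endothelial junction protein) was at 1428 CPM with a transcript in 97.9% of cells, Cldn5 (the tight junction claudin of endothelium) at 3109 CPM in 98.9%, and Erg alone stayed below, at 26.2 CPM. Leukocyte genes summed to 735 CPM against 24965 CPM in cells chosen for Ptprc, and fibroblast and mural genes to 154 CPM against 16693 CPM in cells chosen for Col1a1. Of the 12 leukocyte genes 1 was at 0, Cd3e, and the most abundant was Lyz2 at 581 CPM, with a transcript in 249 of 437 cells and 263 CPM without the 3 barcodes of epithelial or lymphatic RNA. Of the 11 fibroblast and mural genes 0 were at 0, and the most abundant was Inmt at 57.3 CPM. The 6 erythroid genes summed to 13.8 CPM, with 2 of them at 0. Epithelial and club genes summed to 23662 CPM, nearly all of it Scgb1a1 in the barcode described above.

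Without the 3 barcodes that carried epithelial or lymphatic RNA, Scgb1a1 stood at 928 CPM. It was 339 CPM in library 1, 1040 in library 2, 1314 in library 3 and 188 in library 7. After thinning to 2000 UMIs, 79.4% of general capillary cells had a Scgb1a1 transcript, and so did 65.2% of aerocytes, 52.0% of leukocytes and 59.4% of fibroblasts, which should lack the gene. Transcripts of this gene were thus found in all cell classes, and no expression is read from them. Xist was found in each library, at 1502, 1008, 1089 and 905 CPM in libraries 1, 2, 3 and 7, while 4 Y-linked genes had no transcript in any of the cells.

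Sema3c, a secreted semaphorin that guides vessel and airway growth and the third marker of these cells, was high in all libraries. Its level was 1912 CPM in library 1 (95% exact Poisson interval 1750.4 to 2083), 1797 in library 2, 1762 in library 3 and 2222 in library 7. The highest and lowest libraries were 1.26 times apart. It was found in 83.3% of cells thinned to 2000 UMIs, against 0.542% of leukocytes and 8.06% of fibroblasts treated likewise. The other endothelial cells described below also carried it, with a transcript in 61.1% of thinned aerocytes and 63.6% of thinned large-vessel cells. Sema3c lies at chr5:17574281-17730268 on the plus strand (GENCODE M21 on GRCm38).

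The neighbouring aerocytes gave the first comparison. They were 254 cells with 2 or more Cdh5 UMIs, a transcript of both Ednrb and Car4 and none of Vwf, Prox1, Col1a1 or Ptprc. Libraries 1, 2, 3 and 7 gave 18, 137, 78 and 21 of them, with a median of 7136.5 UMIs. Of 4163 genes at 50 CPM or more in either kind of cell, 194 were at least 2 times higher in general capillary cells (4.66%) and 254 at least 2 times lower (6.1%), each in the same direction in all 3 libraries with 20 or more cells of both kinds. The median difference over all these genes was -0.06 on the log2 scale. Gpihbp1 was not fully absent from these cells, of which 119 had 2 or more UMIs of it. Against the 105 with 0 Gpihbp1 UMIs, chosen after the values had been seen, 389 of 4269 genes were higher and 427 lower, with direction checked in 2 libraries. Folds below use all 254 aerocytes, and several were larger against those with 0 Gpihbp1 UMIs. Those cells were picked for lacking a gene of general capillaries, so this follows in part from the choice. The 8 genes of the rules were left out. In this comparison and the next, a gene under 50 CPM in general capillary cells entered only if the other kind reached 50 CPM. The filter then set its direction as lower. The kinds of cell were chosen by their own transcripts, so no test was made between them, and "higher" and "lower" mean past this fold limit.

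Genes known for general capillaries were mostly higher and genes known for aerocytes mostly lower. Of 15 listed general capillary genes compared, 9 were higher and 0 lower, with a median log2 difference of 1.23. Of 15 listed aerocyte genes, 0 were higher and 13 lower, with a median of -3.60. Both lists are marker lists of the cell kinds being told apart, so their directions follow from the choice of cells.

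Among the receptors, Aplnr (the apelin receptor) was at 299, 270, 440 and 244 CPM in libraries 1, 2, 3 and 7, against 82.6 CPM in aerocytes, 3.72 times higher. Its ligand Apln ran the other way, at 30.6 CPM against 371 CPM. Of the 62 Apln transcripts in general capillary cells 53 were in 5 barcodes of library 2, so the level in the other cells was far lower. Kit (the stem cell factor receptor) was at 624, 479, 613 and 470 CPM against 157 CPM, 3.35 times higher, while its ligand Kitl was at 269 CPM against 1479 CPM, 5.50 times lower. In both pairs the receptor was higher in general capillary cells and the ligand in aerocytes, and both receptors were above the aerocytes of the same library in each of the 4 libraries. Aplnr and Kit are on the general capillary list and Apln on the aerocyte list, so their directions follow from the choice of cells. Apln was also compared only because of its aerocyte level, so the filter set its direction. After thinning, Aplnr was found in 41.5% of general capillary cells and Kit in 64.4%, against 8.61% and 15.6% of aerocytes. Aplnr lies at chr2:85136225-85139923 and Kit at chr5:75574916-75656722, both on the plus strand.

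The VEGF and angiopoietin genes split within the family. Of 8 compared, 3 were higher and 2 lower, with a median of 0.25. Tek, the angiopoietin receptor, was at 638, 539, 838 and 597 CPM against 192 CPM in aerocytes, 3.23 times higher. Ptprb, the phosphatase that damps that receptor, was at 2004, 2333, 3059 and 2378 CPM against 769 CPM, 3.18 times higher. In aerocytes with 0 Gpihbp1 UMIs Ptprb was at 103 CPM, a larger difference. Vegfa, the growth factor itself, was at 594, 447, 634 and 551 CPM against 131 CPM, 3.92 times higher. Kdr, the main VEGF receptor, was lower in every library, at 535, 389, 498 and 516 CPM against 2316 CPM, or 5.24 times. Its co-receptor Nrp1 was 2.77 times lower, at 542 CPM against 1502 CPM. Flt1, the decoy receptor, was at 787 CPM against 760 CPM, and Flt4 and Tie1 were also within the limit.

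Genes of the capillary surface and of lipid uptake were mixed. Plvap (the diaphragm protein of endothelial pores) was at 952, 789, 1654 and 563 CPM against 303 CPM, and Cd93 at 2255, 1352, 2176 and 1816 CPM against 610 CPM. These were 3.20 and 2.76 times higher. Lpl, the lipase that Gpihbp1 anchors, was at 225 CPM against 95.8 CPM, but it was at 1287 CPM in leukocytes of the same libraries, and the part of leukocyte RNA in its level was not tested. Of 10 lipid uptake genes 2 were higher and 0 lower, Plvap and Lpl, with a median of 0.15. Cd36 (a fatty acid transporter) was at 1958 against 1994 CPM and Cav1 (the coat protein of caveolae) at 1583 against 1260 CPM, both within the limit.

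**Figure D2:**
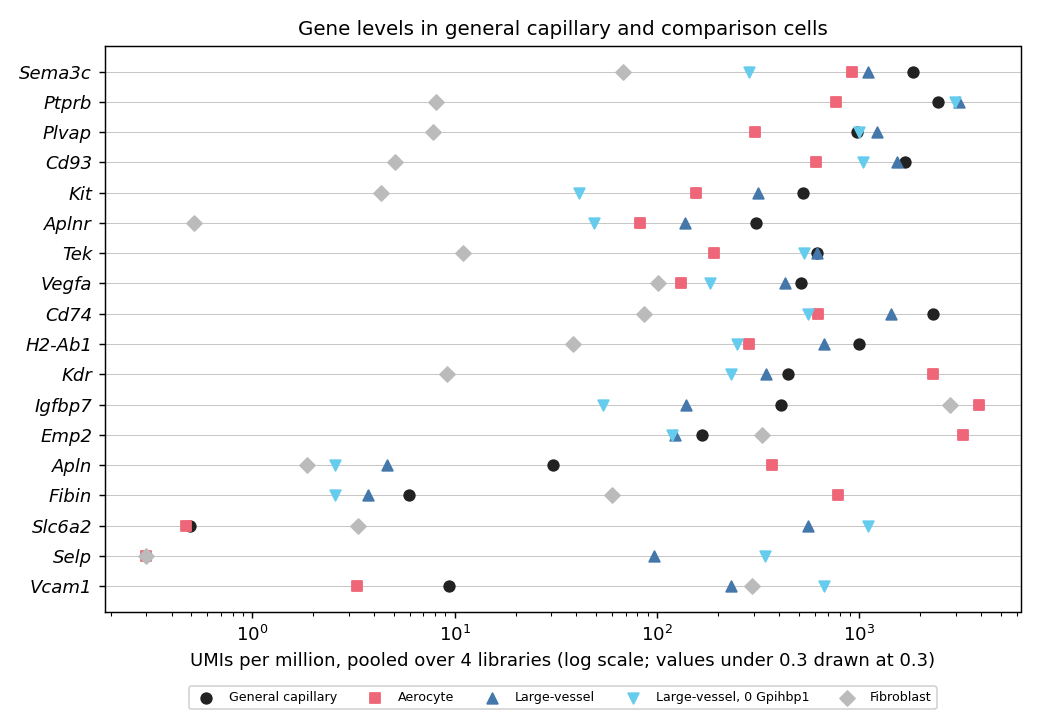
Levels of 18 genes in CPM (log axis, values below 0.3 drawn at 0.3), pooled over 4 libraries, in general capillary cells, aerocytes, large-vessel cells, large-vessel cells with 0 Gpihbp1 UMIs, and fibroblasts. Black points lie right of the aerocyte squares from Sema3c to H2-Ab1 and left of them from Kdr to Fibin.

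All 7 MHC class II genes compared were higher than in aerocytes, with a median log2 difference of 1.73. Cd74 (the invariant chain that escorts class II molecules) was at 1653, 2794, 1422 and 2355 CPM in libraries 1, 2, 3 and 7. In aerocytes it was at 621 CPM, and the fold was 3.74. In aerocytes with 0 Gpihbp1 UMIs it was at 125 CPM, a larger difference. H2-Ab1, a class II beta chain, was at 616, 1218, 744 and 737 CPM against 284 CPM, and H2-Aa, the matching alpha chain, at 413, 893, 589 and 516 CPM against 235 CPM. Ciita, the master regulator of class II transcription, was low in absolute terms, at 33.2, 112, 47.9 and 128 CPM against 26.9 CPM, a fold of 3.32. Every library of general capillary cells lay above the pooled aerocyte level for these 4 genes.

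Leukocytes are rich in the same transcripts, so levels in cells that should lack them were set beside these. Fibroblasts of the same libraries had 86.4 CPM of Cd74 and 38.5 CPM of H2-Ab1, and the 7 genes summed to 203 CPM in fibroblasts, 1472 CPM in aerocytes, 5125 CPM in general capillary cells and 14274 CPM in leukocytes. In cells thinned to 2000 UMIs, Cd74 was found in 81.8% of general capillary cells (77.7 to 85.5), 34.4% of aerocytes (28.5 to 40.8) and 7.91% of fibroblasts (6.53 to 9.48). The intervals of these 3 kinds of cell did not overlap. Large-vessel cells, described below, were nearer, at 71.85% (68.3 to 75.2). Without thinning the shares were 87.9% in general capillary cells, 50.8% in aerocytes, 28.5% in fibroblasts and 85.3% in large-vessel cells. Of 10 MHC class I genes, which nearly all cells carry, 0 were higher and 0 lower, with a median of 0.24.

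The promoters of class II genes share a short element, the Y box, which contains the letters CTGATTGG and binds the factor NF-Y. It is shown because the class II genes lay on 1 side of the limit together. RefSeq promoter windows (GRCm38.p6, 250 bases before to 50 after the start) were found for 4 of the 7 genes, and the letters were searched on both strands. H2-Aa held them 51 bases before its start and H2-Eb1 62 bases before, while H2-DMa and H2-DMb1 had no match in these windows. The 80 bases around each match, 5′ to 3′ on the gene's strand with the match in capitals, come from chr17:34287831-34287910 (minus strand) for H2-Aa and chr17:34305769-34305848 (plus strand) for H2-Eb1.
H2-Aa: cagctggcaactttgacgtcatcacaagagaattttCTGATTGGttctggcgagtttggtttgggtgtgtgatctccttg
H2-Eb1: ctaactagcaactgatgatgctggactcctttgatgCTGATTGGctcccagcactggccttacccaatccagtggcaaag
The same letters were in 1346 of 32851 promoter windows of this length (4.1%). A match describes the sequence and does not show a factor bound there.

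Interferon response genes divided. Of 19 compared, 4 were higher than in aerocytes and 1 lower, with a median of 0.32. Iigp1 (an interferon-inducible GTPase) was at 214, 505, 744 and 238 CPM in libraries 1, 2, 3 and 7 against 106 CPM, 4.64 times higher. Aerocytes with 0 Gpihbp1 UMIs had 13.6 CPM of it. Gbp2 and Gbp4, guanylate-binding proteins, were at 276 and 296 CPM against 104 and 111 CPM, and Ifitm3 at 2701 CPM against 1189 CPM. Ly6c1 was lower, at 1296 CPM against 2836 CPM. The canonical antiviral genes Ifit1, Ifit3 and Isg15 were within the limit, at 120, 79.5 and 65.7 CPM against 72.7, 49.1 and 55.7 CPM.

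Secreted factors and matrix were likewise divided. Of 8 angiocrine factors 2 were higher, Sema3g (another secreted semaphorin) at 421 against 122 CPM and Csf1 (macrophage growth factor) at 101 against 47.7 CPM, and 2 were lower, Kitl and Ntn4, with a median of -0.46. Sema3c itself was 1.99 times higher when pooled and so stopped just short of the limit. In aerocytes it was at 1801, 795, 756 and 1435 CPM in libraries 1, 2, 3 and 7, so in library 1 the 2 kinds were nearly level. Against aerocytes with 0 Gpihbp1 UMIs it was at 1841 against 410 CPM, past the limit. Of 14 basement membrane and matrix genes 6 were higher and 2 lower, with a median of 0.64. Adamts1, a matrix protease, was at 520, 450, 519 and 528 CPM in libraries 1, 2, 3 and 7 against 119 CPM, 4.04 times higher and nearly level across libraries. Sparc was at 1392 against 657 CPM. Timp3 and Timp2, inhibitors of metalloproteinases, were lower, at 329 against 1319 CPM and 242 against 749 CPM. Fibroblasts of the same libraries had 4345 CPM of Sparc and 2120 CPM of Timp3, and the part of fibroblast RNA was not tested. The type IV collagen genes Col4a1 and Col4a2 were within the limit.

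For vessel tone and clotting, Edn1 (endothelin, a vasoconstrictor) was at 307 CPM against 76.0 CPM, 4.04 times higher. It was the 1 higher of 13 genes compared, with a median of -0.08. Thbd (thrombomodulin), Ace and Hpgd, at 1096, 1119 and 1746 CPM, were within the limit. Of 7 Notch genes Dll1 and Hey1 were higher and 0 lower (median 0.37), and of 15 BMP and TGF-beta genes Bmp6 alone was higher, at 416 against 177 CPM, with 0 lower (median -0.17). Of 13 junction genes Jam2 and Gja4 were higher and 0 lower (median -0.20). Of 21 pan-endothelial genes 3 were higher, Tek, Sox17 and Ptprb, and 3 lower, Kdr, Icam2 and Cd34 (median -0.18). Of 9 artery and vein genes 6 were higher and 0 lower (median 1.40), among them Sox17 and Gja4.

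Of 8 genes listed for activated or injured capillaries 4 were higher, Lrg1, Sparcl1, Ntrk2 and Esm1, and 2 lower, Plaur and Apln (median 0.95). The lower level of Apln stands in both this list and that of aerocytes. Apln entered only through its aerocyte level, so the filter set its direction. Lyve1, a hyaluronan receptor of lymphatics that capillaries also carry, was the 1 higher of 2 lymphatic genes, at 325 against 144 CPM, and Hmgb2 the 1 higher of 4 proliferation genes. Without the 3 dividing barcodes the Hmgb2 log2 fold against aerocyte cells was 0.55 in place of 1.18, within the limit. Of 6 epithelial genes 0 were past the limit in either direction.

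Leukocyte adhesion and chemokine genes had 2 higher and 4 lower of 7 compared, with a median of -1.37. Cxcl12 (the ligand of Cxcr4) was at 1173 CPM against 300 CPM and Ackr3, which scavenges Cxcl12, at 143 against 40.1 CPM. Icam1 and Icam2, ligands of leukocyte integrins, were lower, at 142 against 463 CPM and 695 against 1797 CPM. Cx3cl1 and Ackr2 were also lower, but both were under 50 CPM in general capillary cells. They entered only through aerocytes, so the filter fixed their direction and shaped this count and median. Of 23 genes in this list, 6 had no transcript in the 437 cells, among them Selp, Sele and Ackr1 of activated venules and Ccl2. A count of 0 allows up to 1.48 CPM.

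Cyp2f2, at 170 against 5.19 CPM, had a larger pooled fold but not the same direction in all libraries compared, and 1 cell held 92.7% of its transcripts. Among genes past the limit with the same direction in those libraries, Pear1 (a platelet and endothelial receptor) came first by fold. It was at 36.9, 56.7, 43.1 and 63.8 CPM in libraries 1, 2, 3 and 7 against 6.61 CPM, 7.85 times higher. Cyp26b1, an enzyme that breaks down retinoic acid, was 6.59 times higher when pooled, but its libraries ranged from 192 to 2343 CPM. Tmem252, Cxcr4, Lbp, Iigp1, Amd1, Esm1, Grrp1 and Cdc42ep4 followed, between 6.31 and 4.16 times higher. None of these genes from Pear1 on was higher past the limit against the large-vessel cells described below. Pear1, Cyp26b1, Tmem252 and Grrp1 were above general capillary levels there, at 54.2, 617, 231 and 190 CPM. Lbp was past the limit as lower, at 66.2 against 169 CPM. The others were somewhat higher in general capillary cells, within the limit. In the other direction Fibin was at 5.93 CPM against 780 CPM, 132 times lower, Chst1 at 2.96 against 331 CPM, 112 times lower, and Rprml at 1.98 against 121 CPM, 61.4 times lower. Ncam1 had no transcript, against 51.9 CPM, and was at least 35.02 times lower. Tmeff2, Ccdc184, Xpnpep2, Tnxb, Rgs6 and Rasa4 were each at 2.96 CPM or less. Fibin, Chst1, Rprml and Tmeff2 belong to the aerocyte list, whose direction follows from the choice of cells. Emp2 and Igfbp7, which that list also holds, were at 167 against 3245 CPM and 410 against 3891 CPM.

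Cells of large vessels gave the second comparison. They were 695 cells with 2 or more UMIs of both Cdh5 and Vwf (von Willebrand factor) and none of Ednrb, Car4, Prox1, Col1a1 or Ptprc, with 113, 366, 148 and 68 in libraries 1, 2, 3 and 7. Of 3946 genes, 14 were at least 2 times higher in general capillary cells (0.355%) and 76 at least 2 times lower (1.93%), with the same direction in all 4 libraries and a median of 0.02. Vwf is also found at low levels in capillaries, and 525 of the 695 cells had 2 or more Gpihbp1 UMIs. The other comparison therefore took only the 104 of them with 0 Gpihbp1 UMIs, chosen after the values had been seen, and there 333 of 4151 genes were higher (8.02%) and 259 lower (6.24%), with direction checked in 2 libraries.

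Of 16 listed artery and vein genes 0 were higher and 11 lower (median -2.07). The large-vessel cells were picked for Vwf, a marker of the same vessels, so this direction follows from the choice of cells. Slc6a2, the noradrenaline transporter, had 1 transcript in the 437 cells (0.494 CPM, 0.0125 to 2.75) against 557 CPM, and 1101 CPM where Gpihbp1 was at 0. Selp (P-selectin) had none against 96.1 CPM, at least 64.8 times lower with 0 read as 3 counts. Vcam1, the venous adhesion molecule, was between 5.16 and 23.9 CPM in every library, against 231 CPM, and Ackr3 at 143 against 380 CPM. Mgp, at 159 against 976 CPM, was at 33421 CPM in fibroblasts, and the part of fibroblast RNA was not tested. Cytl1, Fgl2, Cpe, Tmem45a, Fbln5, Sorbs2 and Ccdc80 were among the other large differences, each at 6.92 CPM or less in general capillary cells. These, like Slc6a2, Selp and Vcam1, entered only through large-vessel cells, so the filter set their direction. Of 16 vessel tone and clotting genes 0 were higher and 3 lower, with a median of -0.16. The lower ones were Ptgs2, Ptgs1 and Ptgis, which make prostaglandins. Only 12 genes of this list reached 50 CPM in general capillary cells. The rest of the 16 entered only through large-vessel cells, so the filter set their direction and shaped this count.

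Of the listed general capillary genes 2 of 15 were higher and 0 lower (median 0.14). They were Aplnr, at 307 against 137 CPM, and Scn7a (a sodium channel), at 1277 against 517 CPM. Against large-vessel cells with 0 Gpihbp1 the same genes stood at 48.8 and 56.5 CPM, Kit at 41.1 CPM and Sema3c at 285 CPM. Those cells were picked for lacking Gpihbp1, a gene of the same list, so lower levels there follow in part from the choice. Enpp2 (the enzyme autotaxin, at 55.8 against 12.8 CPM) and Rgcc (at 197 against 45.4 CPM) were 4.37 and 4.33 times higher, and Igfbp7, Rsad2, Sparcl1, Ntrk2, Gprin3 and F2r between 2.94 and 2.37 times. In Igfbp7 1 cell held 19.0% of the transcripts. Scgb1a1 passed the limit through the single barcode named above and not without it (Scgb1a1 log2 fold against large-vessel cells -3.01). That value leaves barcodes out of the general capillary cells alone, while the large-vessel cells stayed at 7478 CPM, with 13368 CPM in library 2 and 229, 866 and 142 CPM in libraries 1, 3 and 7, so no direction is read from it. For MHC class II, 0 of 7 genes were past the limit in either direction (median 0.58), and Cd74 was at 2321 against 1439 CPM, or 557 CPM where Gpihbp1 was at 0.

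The libraries differed from each other in many genes. Of 3704 genes at 50 CPM or more, 542 (14.6%) differed at least 2 times between the highest and lowest library with 95% counting intervals apart, and the median ratio over all genes was 1.62. Library 7, the smallest, was highest for 191 of the 542, library 1 for 143, library 3 for 135 and library 2 for 73. Without the 3 barcodes of epithelial or lymphatic RNA 464 of the 542 were still past the limit, and without these and the 3 dividing cells 399. The labels tie no library number to a mouse, so the mouse, its treatment, its dissociation and its library cannot be told apart.

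Scgb1a1, Sftpc, Cbr2, Cyp2f2, Sftpa1, Lyz2, Wfdc2, Cxcl15, Scd1 and Hp were among the 20 largest ratios, and many of these are genes of airway or alveolar epithelium. All 6 epithelial genes compared were past the limit. In 1 cell each lay 95.5% of the transcripts of Scgb1a1 and 86.9% of those of Sftpc. Without the 3 barcodes of epithelial or lymphatic RNA and the 3 dividing ones, Lyz2 alone of these 10 stayed among the 20 largest ratios, at 10.96 in place of 23.2. Inmt, Gsn and Mgp were also among the 20, and in fibroblasts of these libraries they stood at 4306, 13408 and 33421 CPM. The part of such RNA in the ratios was not tested beyond leaving out the barcodes above.

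Immediate early genes, transcription factors and brakes switched on within minutes of a stimulus or of tissue dissociation, were mostly lowest in library 1. Of 17 in the list with heat shock genes 12 were past the limit, with a median ratio of 2.59, and all but Hspa8 had library 1 lowest. Atf3 was at 25.8, 248, 493 and 151 CPM in libraries 1, 2, 3 and 7, Egr1 at 210, 432, 900 and 412 CPM, and Junb at 402, 683, 1388 and 574 CPM. Library 3 was highest for all 3 genes and library 1 lowest. Zfp36 and Socs3, which shut off inflammatory signals, had the same order of ends, from 199 to 941 CPM and from 144 to 601 CPM. Fosb was highest in library 7, at 296 CPM against 7.38 CPM in library 1. Against aerocytes 0 of 17 of these genes were higher and 0 lower (median 0.12). Atf3 was also highest in library 3 in aerocytes and large-vessel cells, at 278 and 309 CPM. Its lowest library was 1 in aerocytes, at 12.3 CPM, and 7 in large-vessel cells, at 16.3 CPM.

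A second set was high in libraries 2 and 7. Ntrk2 (the receptor of brain-derived neurotrophic factor) was at 111, 316, 86.2 and 893 CPM in libraries 1, 2, 3 and 7. Sparcl1 was at 384, 925, 326 and 1682 CPM and Cxcl12 at 469, 1466, 498 and 1943 CPM. Libraries 1 and 3 lay below both in each of these 3 genes. Ntrk2 had the same order of libraries in other endothelial cells. It was at 49.2, 130, 28.4 and 274 CPM in aerocytes and 54.5, 110, 25.7 and 457 CPM in large-vessel cells. Sparcl1 was also highest in library 7 in both, at 302 and 849 CPM. Leaving out the 3 odd barcodes gave 339 and 934 CPM of Ntrk2 and 1581 and 2026 CPM of Cxcl12 in libraries 2 and 7. Leukocytes had 1.76 CPM of Cxcl12 and fibroblasts 271 CPM, while Sparcl1 was at 1799 CPM in fibroblasts. Ntrk2 and Sparcl1 belong to the list for activated or injured capillaries, of which 4 of 7 genes were past the limit. The other two, Lrg1 and Esm1, followed other orders, with Lrg1 at 140, 85.1, 33.5 and 162 CPM and Esm1 at 7.38, 55.0, 74.2 and 75.4 CPM in libraries 1, 2, 3 and 7.

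Cyp26b1 followed another order, at 1126, 231, 192 and 2343 CPM. Library 7 had 12.2 times the level of library 3, and library 1 stood next to it. Libraries 1 and 7 were also above libraries 2 and 3 in large-vessel cells, at 1482, 315, 285 and 1428 CPM in libraries 1, 2, 3 and 7. The same held in aerocytes, at 338, 57.4, 52.1 and 76.8 CPM. The enzyme Amd1, which feeds polyamine synthesis, was at 48.0, 150, 28.7 and 406 CPM. Col4a1, a chain of the basement membrane collagen, was at 1734, 1350, 811 and 2558 CPM, and 8 of 13 basement membrane and matrix genes were past the limit (median ratio 2.44). Col4a2, Hspg2 (perlecan) and Sparc also had library 7 highest and library 3 lowest, at 1085 and 445, 238 and 21.5, and 2251 and 986 CPM. Edn1 was lowest in library 1, at 99.6 CPM, and highest in library 7, at 632 CPM. Of 7 Notch genes 5 were past the limit, with Dll1 highest in library 1 and Jag2 in library 7.

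Library 3 was highest in a further group. Plvap stood there at 1654 CPM against 563 CPM in library 7, Hpgd (which inactivates prostaglandins) at 2776 against 1201 CPM, and Cyp4b1 at 821 against 104 CPM. Icam1 was at 235 against 34.8 CPM in the same 2 libraries. Cyp4b1 was also highest in library 3 and lowest in library 7 in other endothelial cells. The levels were 2057 and 797 CPM in aerocytes and 588 and 112 CPM in large-vessel cells. Of 7 class II genes 5 were past the limit, and H2-Aa was at 413 CPM in library 1, the lowest, against 893 CPM in library 2. H2-Ab1, H2-Eb1, H2-DMb1 and Ciita were lowest there too, whereas Cd74 was lowest in library 3 and H2-DMa in library 7. Of 4 proliferation genes 3 were past it, with library 1 highest, where the 3 dividing cells are. Without those cells Hmgb2 alone was past it, at 261 CPM in library 1 and 104, 112 and 122 CPM in libraries 2, 3 and 7, and the ratios of Stmn1 and Tubb5 were 1.36 and 1.67.

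**Figure D3:**
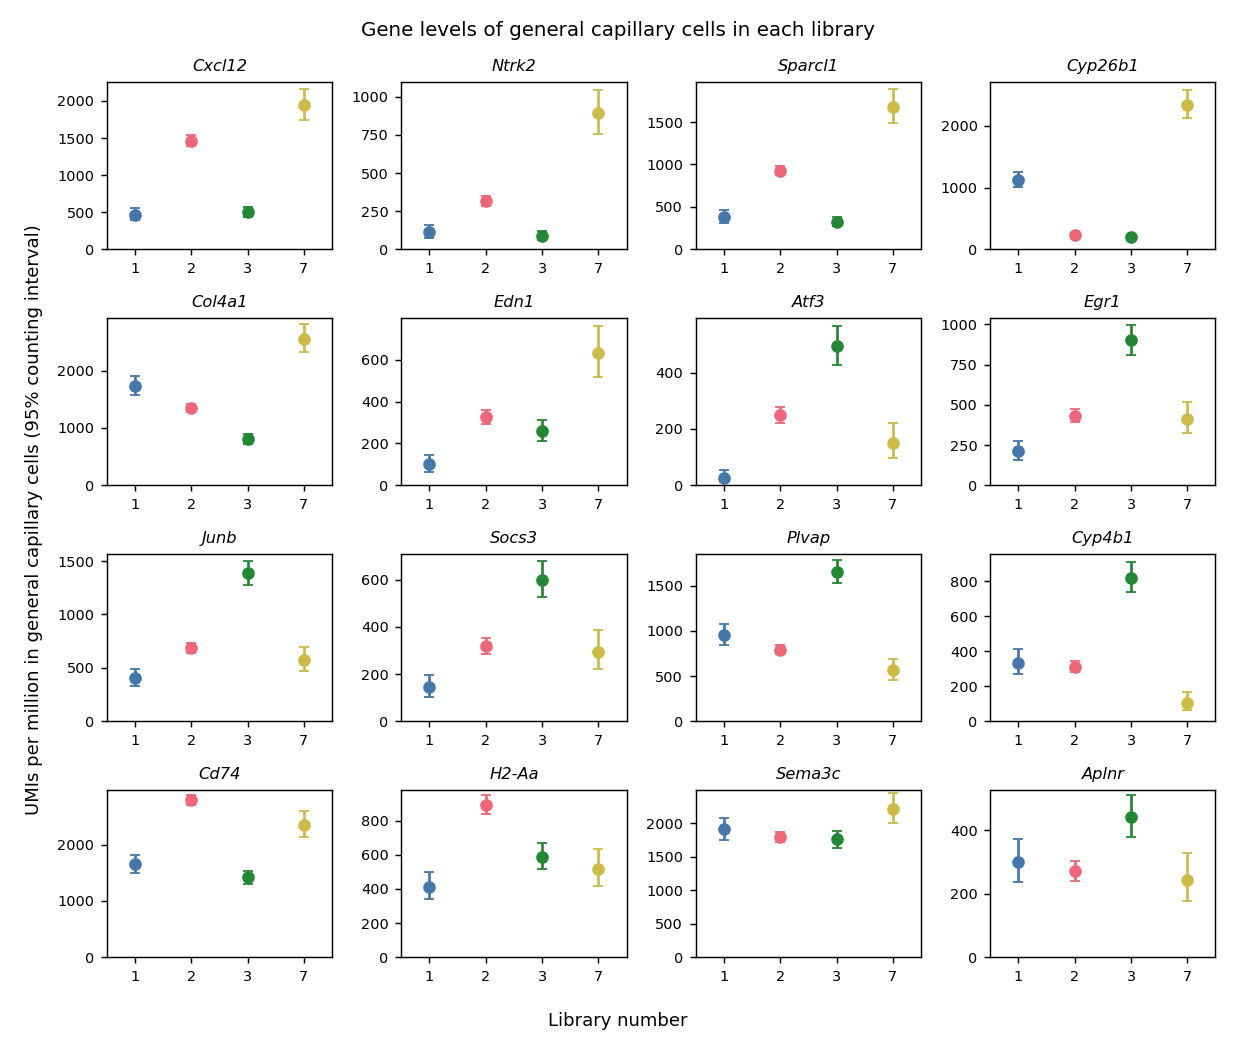
Levels of 16 genes in general capillary cells of libraries 1, 2, 3 and 7, in CPM with exact 95% Poisson intervals (linear axes from 0, each with its own scale). Ntrk2, Sparcl1 and Cxcl12 are high in libraries 2 and 7, Atf3, Egr1 and Junb are high in library 3, and Sema3c and Aplnr stay within 1.26 and 1.81 times.

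Of 21 pan-endothelial genes 1 was past the limit between libraries, Cd34, at 638, 393, 302 and 644 CPM, and of 15 BMP and TGF-beta genes 2 were, near the share over all genes. Of 15 general capillary genes 6 were, with a median ratio of 1.67 against 1.62 over all genes, and Sema3c, Aplnr, Kit, Cd93, Ptprb and Itga1 were not. Kit differed 1.33 times and Ptprb 1.53 times. A list of 11 proteases and inhibitors held some that the study names, such as Ctsl, and others that it does not, such as Cst3. Of these 11, 5 were compared and 1 was past the limit, near the share of 14.6% over all genes. The 1 gene was Ctsl (cathepsin L), at 185, 273, 428 and 191 CPM in libraries 1, 2, 3 and 7, with library 3 highest. Ctsl was at 492 CPM in aerocytes, 351 CPM in leukocytes and 831 CPM in fibroblasts, and none of these proteases was past the limit against aerocytes. Mmp12, Mmp9 and Elane had 3, 3 and 0 transcripts.

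Cells of the same library differed from each other too. For 402 cells thinned to 2000 UMIs (35 were shallower) the variance over the mean was taken within libraries 2 and 3, which had 228 and 99 such cells, and the lower of the values was ranked. A gene whose transcripts are spread by chance has a value near 1. The median over 3733 genes was 0.98, and 49 genes reached 2. Malat1, a long noncoding RNA, and Gm42418, which overlaps ribosomal RNA, led with 16.1 and 8.88.

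Immediate early and related stress genes made up most of the next ranks. Egr1 (6.15), Junb (6.11), Ier3 (4.51), Cebpd (4.15), Atf3 (3.78), Socs3 (3.58), Fos (3.57), Zfp36 (3.31) and Btg2 (3.30) were all among the first 15. Egr1 had no transcript in 75.9% of thinned cells and up to 15 in a cell, and the 10% of cells with most held 76.1% of it. Among these genes a correlation was computed only for Atf3 with Egr1 and for Junb with Zfp36, and each pair went together within cells. Other pairs of them were not examined. The correlation of Atf3 with Egr1 over thinned cells was 0.73, 0.68 and 0.68 in libraries 1, 2 and 3, and that of Junb with Zfp36 was 0.64, 0.76 and 0.78. These describe 48, 228 and 99 cells that share a library each.

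Cd74 came sixth, at 4.40. Its median was 4 transcripts in a thinned cell, 18.2% of cells had none, and the highest had 32. Cd74 and H2-Aa went together, with correlations of 0.59, 0.62 and 0.62. Iigp1 (3.59), Sema3c (3.38) and Hpgd (3.34) also varied more than most, and Sema3c was missing from 16.7% of thinned cells and reached 21 in 1. The counts of Cxcl12 and Plvap, found in 64.7% and 69.4% of thinned cells, had weak negative correlations of -0.32, -0.22 and -0.12. By contrast Pecam1 (1.08), Kit (1.14), Tek (1.12) and Icam2 (0.77) were spread over the cells about as evenly as their counts allow.

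**Figure D4:**
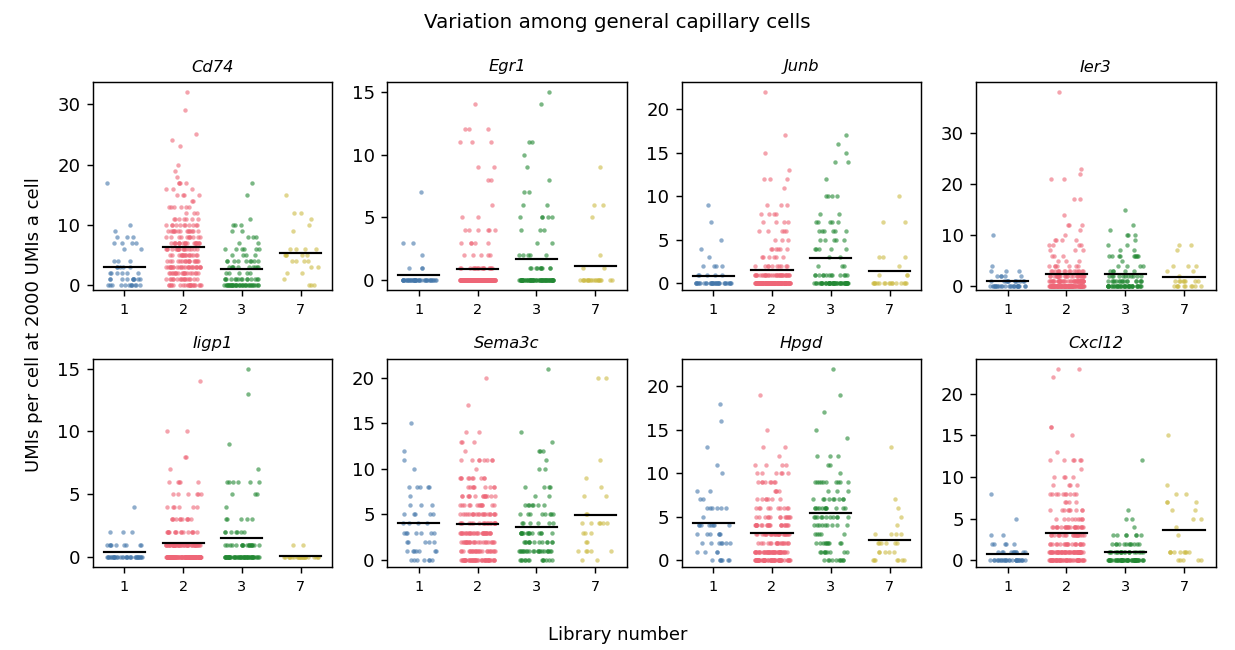
Transcripts of 8 genes in single general capillary cells thinned to 2000 UMIs, by library (1 point is 1 cell). Egr1 and Junb are absent from most cells and high in a few, whereas Cd74 and Sema3c run from 0 to 32 and 0 to 21 with medians of 4 and 3.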

How the data were processed

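Lung cells of 4 mice were measured by 10x Genomics single-cell sequencing. The authors deposited whole-number UMI counts per gene and cell, made with Cell Ranger 3.1.0 on mm10 per the submitters' processing notes, and not normalized further. Of 31053 gene identifiers 31011 were found in GENCODE M21. Members were chosen by the stated rule with no further filter on cells, and no doublets were removed (Scrublet calls were left out as an alternative). Counts were summed over cells and given per 1000000 UMIs with exact 95% Poisson intervals, and shares with exact binomial (Clopper-Pearson) intervals. A count of 0 was read as allowing 3 counts. The libraries carry no group and the kinds of cell were chosen by their own transcripts, so no test was made. Members and lists were chosen with earlier results of these data known. Named genes are members of 27 lists (355 genes), the 10 of largest fold in each direction of a comparison, the 20 of largest library ratio and the 15 most variable between cells. A few genes that the rule names are not reported here. The code was run on simulated data with 200 genes changed 4 times, of which 200 were recovered with 0 false calls, which does not bear on genes near the limit of 2. Alternatives varied the rule, filters, depth, comparison cells and libraries. Python 3.11.15, numpy 2.4.6, scipy 1.17.1, pandas 2.3.3, scanpy 1.11.5 and matplotlib 3.10.9 were used.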

Additional observations from a re-analysis of the deposited data

How the results depend on the processing

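Counts past the limit moved with several choices, and the cause was not tested. A mitochondrial limit of 5% left 188 of the 437 cells and gave 28 genes in place of 14 higher than in large-vessel cells, and asking for 3 UMIs of Cdh5 and Gpihbp1 gave 29. Leaving out cells with 3 or more UMIs of Sftpc, Scgb1a1 and Lyz2 left 86 cells and gave 405 genes higher than in aerocytes, 61 higher than in large-vessel cells and 322 between libraries. A floor of 20 CPM gave 308 higher than in aerocytes and 26 higher and 158 lower than in large-vessel cells, and one of 100 CPM gave 116, 9 and 42, with 308 between libraries. Comparison cells with 0 Gpihbp1 UMIs, chosen after seeing the data, gave 389 higher and 427 lower for aerocytes and 333 higher and 259 lower for large-vessel cells. Thinning to 2000 UMIs gave 304 genes between libraries, and thinning to 4000 UMIs 215 variable genes. Without each library in turn the cells numbered 195 (without library 2) to 409, genes higher than in large-vessel cells 17 to 23 (without libraries 3 and 7), genes between libraries 306 (without library 7) to 408, with 329 without library 1, and variable genes 49 to 90 (without library 3), with 79 without library 2. Without the 3 barcodes of epithelial or lymphatic RNA, also added after seeing the data, the Scgb1a1 log2 fold against large-vessel cells reversed to -3.01, with no barcode left out of the large-vessel cells. No paired analysis was possible between the study's groups because no library is tied to one, and cell kinds were compared within libraries by direction alone, with no test. Library 7, with 28 cells and 172401 UMIs, is the least precise: 0 transcripts there allow up to 17.4 CPM, against 2.58 CPM in library 2.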

Other observations

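A few genes rested on very few cells. Of 62 transcripts of Apln, the aerocyte ligand of the apelin receptor, 53 were in 5 barcodes of library 2, which also held 26 transcripts of Sema3c. Fabp4, a fatty acid carrier, had 182 transcripts in 11 cells, and 71.4% of them were in 1 cell. More than 1 in 4 transcripts were in 1 cell for 20 of the 542 genes that differed between libraries.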
